A study of Mus musculus with 8 samples.

Results

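Transcripts of 5 genes that help innate immune cells recognise bacterial and fungal products, *Cd14*, *Ly96*, *Ly86*, *Clec4e* and *Pglyrp1*, were measured in the spleens of mice given R848 (resiquimod) or PBS (Mock) for 7 days. R848 is a small-molecule agonist of the endosomal Toll-like receptor TLR7, and it was dosed at 1 mg per kg per day. The 5 genes were taken by symbol from the 84 pathway genes of a quantitative PCR plate for Toll-like receptor (TLR) signalling, and all 5 were found on it. The spleens came from mice labelled TLR7-/- given R848 or PBS, mice labelled IFNAR-/- (lacking the type I interferon receptor) given R848 or PBS, and C57BL/6 wild-type mice given R848 or PBS. Each sample was RNA pooled from 3 mice. The series holds 8 samples in 6 groups, with 1 sample per treatment in each deficient strain and 2 experiments per treatment in wild type, which the deposited table gives as 1 mean. How the deletions were made and the ages of the mice are not given in the sources used here.

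CD14, a surface protein of monocytes and macrophages, hands lipopolysaccharide (LPS), the outer-membrane glycolipid of Gram-negative bacteria, to the TLR4 receptor, and in mice it has also been described as a co-receptor for TLR7 and TLR9. MD-2, the product of *Ly96*, is the subunit of the TLR4 complex that binds LPS directly, and MD-1, the product of *Ly86*, plays the like role for the TLR4 relative RP105 on B cells and myeloid cells. *Clec4e* encodes Mincle, a C-type lectin of macrophages that recognises glycolipids of mycobacteria and fungi and is inducible by inflammatory stimuli. *Pglyrp1* encodes a secreted protein of neutrophil granules that binds bacterial peptidoglycan.

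Levels are delta-Ct values in cycles, each gene's threshold cycle (Ct) after subtraction of the average Ct of 3 reference genes, *Hprt1*, *Hsp90ab1* and *Gapdh*. A lower delta-Ct means more transcript, and 1 cycle is a 2-fold difference. A log2 difference is the delta-Ct of Mock minus that of R848, so a positive value means a higher level with R848. With 1 value per group there is no replicate error and no difference was tested, so a gene called "higher" or "lower" is so in the pools read here. The single-experiment columns are resolved to 0.1 cycles and the wild-type means to 0.05 cycles. A Ct later than 35 and a blank well are both deposited as 35. A reading at this cap can therefore be a level at or below that limit or a well that gave no reading, and the values do not tell these apart. The reference genes of the Mock columns came up later than those of the R848 columns, by 0.53 cycles in TLR7-/-, by 2.5 cycles in IFNAR-/- and by at least 3.52 cycles in C57BL/6 spleens, and the part of this gap in the differences below was not tested. *Tlr7* itself was read in the columns labelled TLR7-/-, with delta-Ct 9.33 in R848 and 9.20 in Mock, against 9.47 and 12 in the C57BL/6 columns. The position of its PCR product relative to the deletion is not given, so the reading checks nothing about the label. In whole spleen, fewer cells of a type and less RNA per cell cannot be told apart.

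The 5 genes were first counted together beside the whole plate. A gene at the cap on one side counts by its bound. In TLR7-/- spleens 1 of 5 was at least 2-fold higher with R848, *Cd14* by its bound, and none was lower, where 4.76% of the 84 pathway genes were higher and 3.57% lower. In IFNAR-/- spleens 2 of 5 were higher, *Clec4e* and *Pglyrp1*, and *Cd14* was lower, where 53.6% were higher and 2.38% lower. In C57BL/6 spleens 2 of 5 were higher, *Cd14* and *Clec4e*, and none was lower, where 38.1% were higher and 13.1% lower. The median log2 difference of the 5 was -0.03 in TLR7-/-, 0.90 in IFNAR-/- and 0.53 in C57BL/6 spleens, against 0.07, 1.25 and 0.41 over all 84 genes.

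*Clec4e* was the most variable of the 4 genes that were measured in every column. Its delta-Ct was 5.13 with R848 and 5.20 with Mock in TLR7-/- spleens, 4.63 with R848 and 8.23 with Mock in IFNAR-/- spleens, and 7.67 with R848 and 9.15 with Mock in C57BL/6 spleens. It was therefore 12.1-fold higher with R848 in IFNAR-/- spleens (log2 difference 3.60) and 2.79-fold higher in C57BL/6 spleens (1.48), while in TLR7-/- spleens the log2 difference was 0.07, less than the 0.1-cycle step of the readings. Among genes of known direction its response stood 40th of 79 in TLR7-/-, 10th of 75 in IFNAR-/- and 23rd of 79 in C57BL/6 spleens, counted from the highest. The response in IFNAR-/- spleens stayed at 2-fold or more under all 5 other scalings, between 2.35 with the plate's median gene set to 0 and 4.0 with *Hsp90ab1* alone as reference. That in C57BL/6 spleens stayed at 2-fold or more under 4 of 5, and was 0.98 with all 5 housekeeping genes as reference.

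**Figure D1:**
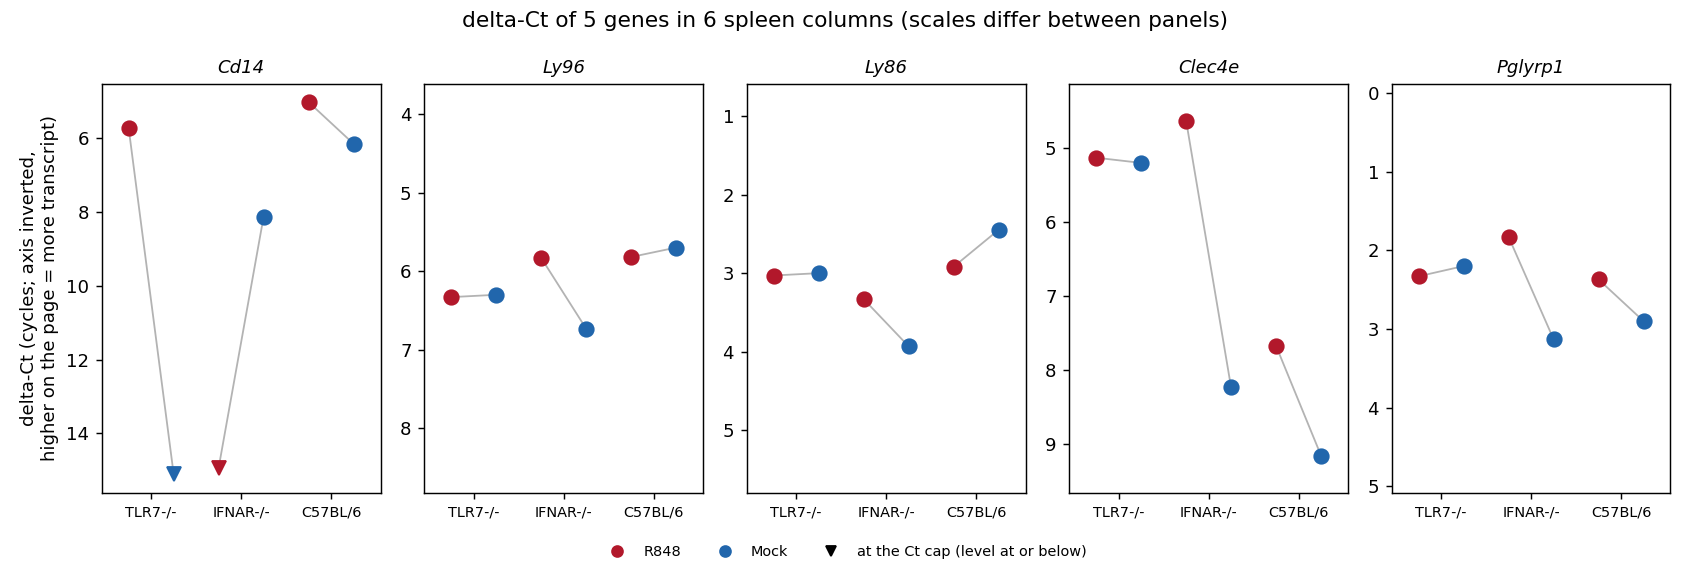
Delta-Ct in cycles (inverted axis, own scale in each panel) of the 5 genes in spleens labelled TLR7-/-, IFNAR-/- and C57BL/6, R848 in red and Mock in blue, with triangles for readings at the Ct cap. *Clec4e* spans 4.63 to 9.15 and *Ly96* 5.70 to 6.73, while *Cd14* is at the cap in TLR7-/- Mock and in IFNAR-/- R848.

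The C57BL/6 Mock column held the lowest *Clec4e* level of all 6, and its highest levels were in IFNAR-/- R848, TLR7-/- R848 and TLR7-/- Mock, in that order, within 0.57 cycles of each other. The spread over the 6 columns was 4.52 cycles, or 22.9-fold, the 5th widest among the 69 pathway genes that were never at the cap, whose median spread was 2.42 cycles. Set against C57BL/6 Mock, *Clec4e* was 15.5-fold higher in TLR7-/- Mock (log2 difference 3.95, 3rd of 78 genes of known direction), where the median gene was also higher, by 0.93. It was 1.89-fold higher in IFNAR-/- Mock (0.92), which lay below 2-fold here and at or above it under 3 of the 5 other scalings (from 0.75 to 1.25). Set against C57BL/6 R848, it was 5.82-fold higher in TLR7-/- R848 (2.54, 3rd of 83) and 8.22-fold higher in IFNAR-/- R848 (3.04, 3rd of 81). Under the other scalings the other 3 differences from C57BL/6 ranged from 3.03 to 4.20 for TLR7-/- Mock, from 2.15 to 2.80 for TLR7-/- R848 and from 2.68 to 3.20 for IFNAR-/- R848. With the TLR7-/- Mock column as the control, *Clec4e* was lower in C57BL/6 R848 (log2 difference -2.47) and higher by 0.57 only in IFNAR-/- R848. This swap brings in the gap between Mock columns of different strains, so it is no separate check of the response. The *Clec4e* readings of C57BL/6 Mock and IFNAR-/- Mock were late, at Ct 31.0 and 30.8, which is 4.0 and 4.2 cycles before the cap.

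*Clec4e* and *Pglyrp1* were the members with measured readings at least 2-fold higher in the IFNAR-/- pair, and the 250 bases before their annotated starts are shown for that reason, as given by RefSeq for build GRCm38.p6. They lie at chr6:123289872-123290121 on the minus strand for *Clec4e* and at chr7:18884440-18884689 on the plus strand for *Pglyrp1*, and read 5′ to 3′ toward the gene. Capitals mark the letters TTGNNCAA, as bound by C/EBP factors, and GAGGAA, as bound by the myeloid factor PU.1, on either strand.
Clec4e: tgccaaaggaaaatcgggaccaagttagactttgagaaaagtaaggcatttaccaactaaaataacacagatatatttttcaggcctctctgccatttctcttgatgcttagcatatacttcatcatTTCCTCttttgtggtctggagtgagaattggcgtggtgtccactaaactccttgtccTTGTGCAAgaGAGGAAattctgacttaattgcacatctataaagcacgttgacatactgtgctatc
Pglyrp1: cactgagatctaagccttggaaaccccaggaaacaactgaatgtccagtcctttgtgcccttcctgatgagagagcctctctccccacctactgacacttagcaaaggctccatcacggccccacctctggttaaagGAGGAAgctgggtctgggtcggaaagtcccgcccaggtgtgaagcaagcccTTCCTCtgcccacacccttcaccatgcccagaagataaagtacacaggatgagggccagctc
The letters TTGNNCAA occurred once before *Clec4e*, beginning 66 bases before the start, and were in 5.65% of 32851 windows of the same length before mouse genes. GAGGAA occurred at 123 and 56 bases before the start of *Clec4e* and at 113 and 62 bases before that of *Pglyrp1*, and was in 23.3% of windows. A match to the NF-kB type of site (GGG, any 5 bases, CC) began 93 bases before *Pglyrp1*, letters found in 45.8% of windows, and the interferon-response type (GAAA, any 2 bases, GAAA), in 2.98% of windows, was in neither. The matches did not overlap each other. The search skipped a chromosome chosen beforehand and any gene without a single window in the source, which left 3 of the 5 genes. The window of *Ly86* held none of the 4 motifs. These are matches of letters and not measured binding.

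*Cebpb*, which encodes a C/EBP factor of myeloid cells, was on the same plate and did not share the pattern of *Clec4e*. Its transcript level does not measure C/EBP activity, and a link to *Clec4e* was not tested. Its delta-Ct was 2.43 with R848 and 1.80 with Mock in TLR7-/-, 2.03 and 2.23 in IFNAR-/-, and 3.47 and 2.10 in C57BL/6 spleens. *Cebpb* was 2.58-fold lower with R848 in C57BL/6 spleens (log2 difference -1.37), where *Clec4e* was higher. With *Hsp90ab1* alone as reference, which adds 0.52 to every C57BL/6 response, it was lower by less than 2-fold.

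*Pglyrp1* stayed within a narrow range. Its delta-Ct was 2.33 with R848 and 2.20 with Mock in TLR7-/- spleens, 1.83 with R848 and 3.13 with Mock in IFNAR-/- spleens, and 2.37 with R848 and 2.90 with Mock in C57BL/6 spleens. The spread of 1.30 cycles was 61st of 69 in width. With R848 it was 2.46-fold higher in IFNAR-/- spleens (log2 difference 1.30), 1.44-fold higher in C57BL/6 spleens (0.53) and 1.09-fold lower in TLR7-/- spleens (-0.13). The value in IFNAR-/- spleens lay beside the plate's median gene, which was 1.25 higher with R848 there. After centring on that gene *Pglyrp1* differed by 0.05, and it kept 2-fold with *Hsp90ab1* or *Gapdh* alone as reference but not under the other 3 scalings. Its value of 0.53 in C57BL/6 spleens was 0.03 with 5 housekeeping genes as reference and 1.05 with *Hsp90ab1* alone.

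The MD-2 and MD-1 genes moved little. *Ly96* had delta-Ct values of 6.33 with R848 and 6.30 with Mock in TLR7-/- spleens, 5.83 and 6.73 in IFNAR-/- spleens, and 5.82 and 5.70 in C57BL/6 spleens. *Ly86* had 3.03 and 3.00 in TLR7-/- spleens, 3.33 and 3.93 in IFNAR-/- spleens, and 2.92 and 2.45 in C57BL/6 spleens, again with R848 before Mock. With the 3 reference genes neither was 2-fold higher or lower with R848 in any strain. Log2 differences of *Ly96* were -0.03 in TLR7-/-, 0.90 in IFNAR-/- and -0.12 in C57BL/6 spleens, and those of *Ly86* were -0.03, 0.60 and -0.47. Their spreads over the 6 columns, 1.03 and 1.48 cycles, were 66th and 55th of 69. For both genes the IFNAR-/- Mock column was the lowest in level and the C57BL/6 Mock column the highest. In IFNAR-/- Mock, *Ly86* was 2.79-fold and *Ly96* 2.04-fold lower than in C57BL/6 Mock. Under the other scalings the *Ly86* value stayed between -1.65 and -1.15 and that of *Ly96* between -1.20 and -0.70, which kept 2-fold under 2 of 5. The direction with R848 depended on the scaling. After centring on the median gene both were lower in IFNAR-/- spleens (-0.35 for *Ly96* and -0.65 for *Ly86*). With *Hsp90ab1* alone both were higher in C57BL/6 spleens (0.40 and 0.05) and reached 2-fold in IFNAR-/- spleens (1.30 and 1.00).

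**Figure D2:**
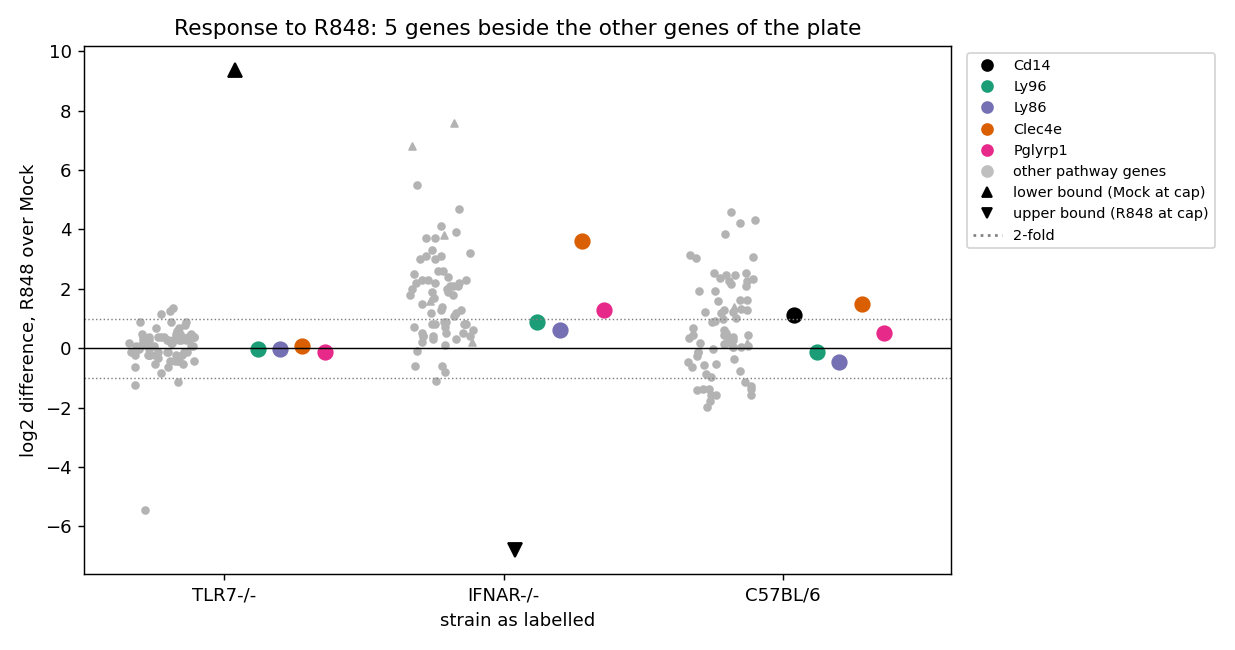
Log2 difference of R848 over Mock for the 5 genes (coloured) and the other pathway genes of known direction (grey) in each labelled strain, with triangles for bounds set by the Ct cap and dotted lines at 2-fold. *Clec4e* stands at 0.07 in TLR7-/-, 3.60 in IFNAR-/- and 1.48 in C57BL/6 spleens, and the *Cd14* bounds of the deficient strains lie at 9.37 and -6.80.

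Unlike the other members, *Cd14* had readings at the cap, 2 of its 6. Its delta-Ct was 5.73 with R848 and 15.10, the cap, with Mock in TLR7-/- spleens. It was 14.93, the cap, with R848 and 8.13 with Mock in IFNAR-/- spleens, and 5.02 with R848 and 6.15 with Mock in C57BL/6 spleens. On these readings it was at least 662-fold higher with R848 in TLR7-/- spleens, at least 111-fold lower in IFNAR-/- spleens and 2.19-fold higher in C57BL/6 spleens. Both bounds hold only if the capped wells were late and not blank. The wild-type value of 1.13 fell short of 2-fold under 4 of the 5 other scalings, with 0.63 using 5 housekeeping genes, and was 1.65 with *Hsp90ab1* alone. The 4 readings that were not at the cap lay between 5.02 and 8.13.

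*Cd14* occupies plate well A04, and its neighbours in wells A01 to A03 were also irregular in the deficient strains. *Btk*, whose kinase acts behind the B-cell receptor, in well A01, was at the cap in all 4 columns of the deficient strains, with R848 and with Mock, against 5.67 with R848 and 4.10 with Mock in C57BL/6 spleens. *Casp8*, encoding an apoptosis-initiating protease in A02, read 11.83 and 10.60 in TLR7-/- and was at the cap with both treatments in IFNAR-/- spleens, against 4.77 and 6.00 in C57BL/6 spleens. *Ccl2*, a monocyte chemokine in A03, read 10.13 with R848 and 4.70 with Mock in TLR7-/- spleens, 5.63 with R848 and the cap of 12.43 with Mock in IFNAR-/- spleens, and 9.92 and 9.80 in C57BL/6 spleens.

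In the columns where *Cd14* was at the cap, *Ccl2* was thus 5.10 cycles (TLR7-/- Mock) and 4.29 cycles (IFNAR-/- R848) earlier than in C57BL/6 spleens of the same treatment. In IFNAR-/- spleens the readings differed by -6.80 for *Cd14* and 6.80 for *Ccl2*, each with 1 side at the cap. The absolute gap from C57BL/6 of the same treatment had a median of 3.89 to 9.59 cycles over these 4 wells in the 4 deficient columns, against 0.72 to 1.08 cycles over the other 80 genes. These wells were chosen with earlier results of these data known, so their wider gap is description only. The largest gap among the other 80 genes was 3.53 (*Cxcl10*, IFNAR-/- Mock) to 4.99 cycles (*Il6*, IFNAR-/- R848). In TLR7-/- R848 it was 4.39 (*Il6*), above the median of the 4 wells there, 3.89. In TLR7-/- R848, the only deficient column in which wells A03 and A04 were both within 1 cycle of wild type, *Cd14* was 0.71 and *Ccl2* 0.21 cycles later than in C57BL/6 R848. Whether readings of these wells were misplaced or failed was not tested, and the deficient-strain values of *Cd14* are given as read.

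**Figure D3:**
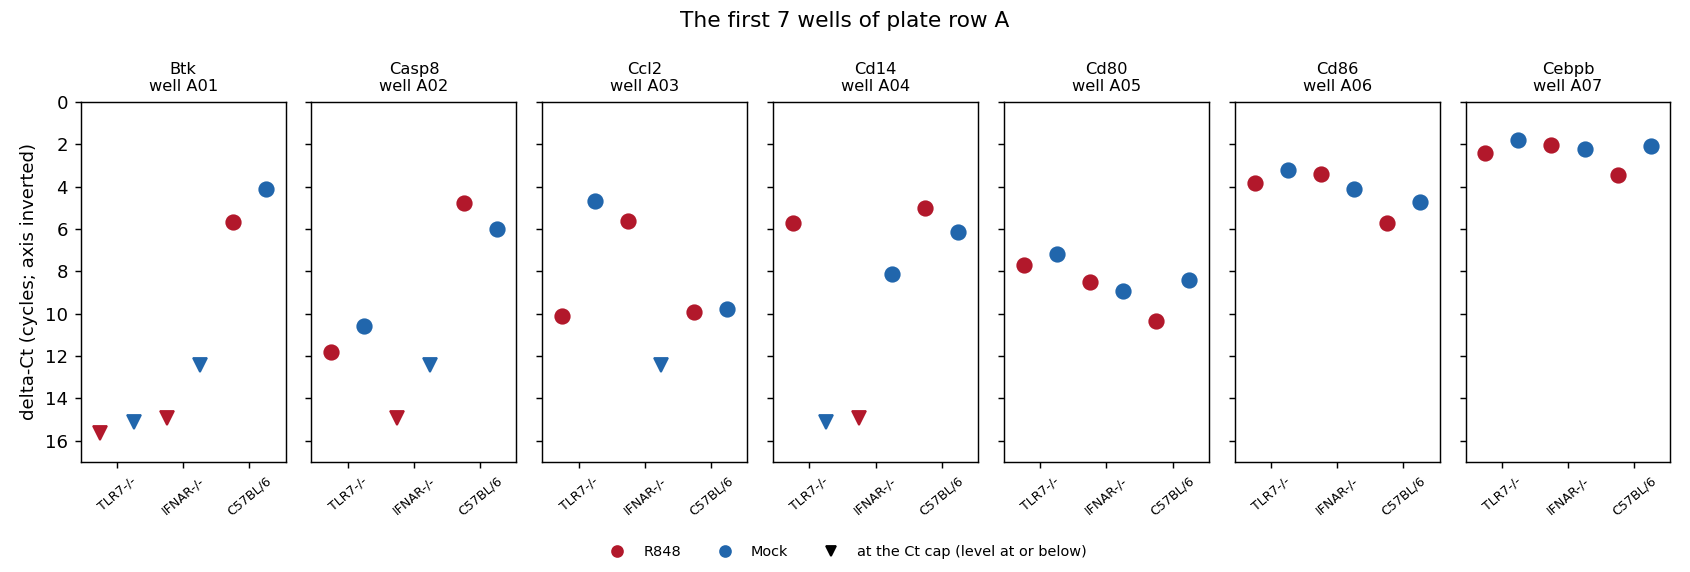
Delta-Ct in cycles (inverted axis) of wells A01 to A07 in the 6 columns, R848 in red and Mock in blue, with triangles at the Ct cap. *Btk*, *Casp8*, *Ccl2* and *Cd14* scatter between 4.10 and 15.63, while *Cd80*, *Cd86* and *Cebpb* in the next wells of the row are at the cap in no column.

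**Figure D4:**
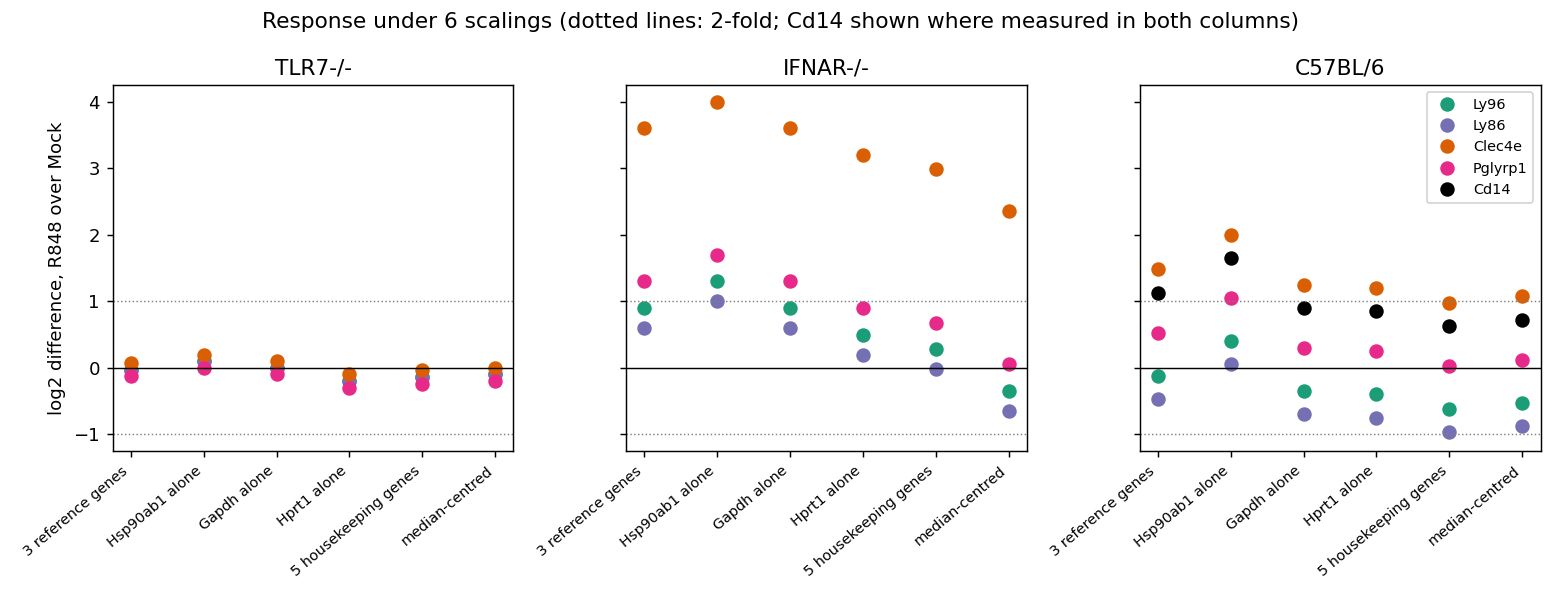
Log2 difference of R848 over Mock in each labelled strain with the 3 reference genes and under 5 other scalings, with dotted lines at 2-fold and *Cd14* shown only where both columns were measured. In IFNAR-/- spleens *Clec4e* stays between 2.35 and 4.0 while *Ly96* runs from -0.35 to 1.30 and *Ly86* from -0.65 to 1.00.

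Against C57BL/6 Mock, *Clec4e* was higher and *Ly86* and *Ly96* were lower in both deficient strains, also under the 5 other scalings. *Cd14* was read lower in both, but its well is among the irregular ones. In TLR7-/- Mock its reading was at the cap, and a scaling cannot tell a late well from a blank one. The log2 difference of *Pglyrp1* was 0.70 in TLR7-/- Mock and -0.23 in IFNAR-/- Mock, and its sign changed under 1 and 3 of the 5. In TLR7-/- Mock, *Clec4e* was at least 2-fold higher and *Cd14*, by its bound, lower than in C57BL/6 Mock, where 48.8% of pathway genes were higher and 4.76% lower. In IFNAR-/- Mock, *Cd14* (3.94-fold), *Ly86* and *Ly96* were at least 2-fold lower than in C57BL/6 Mock and no member was at least 2-fold higher with the 3 reference genes, where 31.0% were lower and 4.76% higher. With R848, *Clec4e* was the only one of the 5 at least 2-fold higher than in C57BL/6 in either deficient strain, where 29.8% of genes were higher in each. *Cd14* was at least 962-fold lower in IFNAR-/- R848, if its capped well was late and not blank. In TLR7-/- R848 it was within 2-fold. The shares of genes at least 2-fold lower were 15.5% in IFNAR-/- R848 and 14.3% in TLR7-/- R848. The response of *Clec4e* in TLR7-/- spleens was 1.41 log2 units below that in C57BL/6 spleens (a difference of -1.41, and from -1.80 to -1.02 under the other scalings), and its response in IFNAR-/- spleens was 2.12 above it (from 1.28 to 2.35).

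The receptor that CD14 and MD-2 serve moved much further than *Ly96* did in IFNAR-/- and C57BL/6 spleens. *Tlr4* read 7.43 with R848 and 7.00 with Mock in TLR7-/-, 6.63 and 8.73 in IFNAR-/-, and 4.72 and 9.30 in C57BL/6 spleens, which made it 4.29-fold higher in IFNAR-/- and 23.9-fold higher in C57BL/6 spleens. Together with the TLR4 adaptor genes *Ticam1*, *Ticam2*, *Tirap* and *Myd88*, 0 of 5 were at least 2-fold higher in TLR7-/- spleens, 5 of 5 in IFNAR-/- spleens and 5 of 5 in C57BL/6 spleens. The shares over all pathway genes were 4.76%, 53.6% and 38.1% in the same order of strains. The 5 had medians of 0.17 in TLR7-/-, 3.20 in IFNAR-/- and 2.38 in C57BL/6 spleens. With 5 housekeeping genes as reference 4 of 5 were still higher in C57BL/6 spleens, and after centring 4 of 5 in each of both strains. In C57BL/6 spleens *Ly96* differed by -0.12 where *Tlr4* differed by 4.58.

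Products of stimulated myeloid cells gave a mixed picture beside the 5 genes. Of *Ccl2*, *Cebpb*, *Csf3*, *Il1a*, *Il1b*, *Ptgs2* and *Tnf*, 4 of 7 were at least 2-fold higher in IFNAR-/- spleens, where 53.6% of all pathway genes were. These were *Tnf* (14.9-fold), *Il1a* (3.73-fold), *Il1b* (2.14-fold) and *Ccl2*, whose well A03 is among the irregular ones. In C57BL/6 spleens *Il1a* was higher (2.43-fold) and *Cebpb* lower, where 38.1% of all pathway genes were higher and 13.1% lower. In TLR7-/- spleens *Ptgs2* was higher (2.25-fold) and *Ccl2*, in its irregular well, lower, where 4.76% were higher and 3.57% lower. *Csf3* had an open direction in every strain, with Mock at the cap. After centring on the median gene 2 of 7 were higher and 1 lower in IFNAR-/- spleens, and none was higher in C57BL/6 spleens.

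The plate holds few genes tied to other spleen cells, and none of them is specific enough to name a cell type. Of the T and NK cell products *Il2*, *Ifng* and *Lta*, none was 2-fold away in TLR7-/- spleens, 1 was higher and 1 open in IFNAR-/- spleens, and 2 were lower in C57BL/6 spleens. Of the B cell-associated genes *Btk*, *Cd80* and *Cd86*, none of known direction was 2-fold away in the deficient strains and 2 were lower in C57BL/6 spleens. Over all pathway genes 4.76% were higher and 3.57% lower in TLR7-/- spleens. The shares were 53.6% and 2.38% in IFNAR-/- and 38.1% and 13.1% in C57BL/6 spleens. The scaling moved the counts of both lists. Under 4 of the 5 other scalings 3 of 3 B cell-associated genes were lower in C57BL/6 spleens, and with *Hsp90ab1* alone 1 of them was higher in IFNAR-/- spleens. The T and NK cell product that was higher in IFNAR-/- spleens kept 2-fold under 2 of 5, after centring 1 of the 3 was lower there, and with *Hsp90ab1* alone 1 in place of 2 was lower in C57BL/6 spleens. Medians of these lists over genes of known direction were -0.23 and -0.58 in TLR7-/-, 0.65 and 0.55 in IFNAR-/-, and -1.37 and -1.57 in C57BL/6 spleens. *Btk* at the cap in the deficient strains is one of the irregular wells, while *Cd86* was read between 3.20 and 5.72 in all 6 columns. The part of a shift in cell types in the values of the 5 genes was not tested.

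Profiles over the 6 columns were compared after subtracting each gene's own mean, as the root mean square (RMS) difference in cycles, among the 69 genes never at the cap. *Ly96* and *Ly86* were each other's nearest gene on the plate, at 0.30 cycles, where the median over the other genes was 0.91 for *Ly96* and 0.88 for *Ly86*. Next to *Ly96* came *Muc13* and *Map3k7* (0.40 and 0.41), and next to *Ly86* came *Nfkbil1* and *Map3k1* (0.36 and 0.38). *Pglyrp1* was nearest to *Ube2n*, which encodes a ubiquitin-conjugating enzyme, at 0.12 cycles, then to *Muc13* and *Map3k1*. *Clec4e* was nearest to *Il1a* (0.58 cycles, against a median of 1.41), then to *Tlr2* and *Myd88* (0.77 each). It was 1.39 to 1.87 cycles from the other 3 members compared. *Il1a* read 9.43 and 9.60 in TLR7-/-, 9.63 and 11.53 in IFNAR-/-, and 11.42 and 12.70 in C57BL/6 spleens, R848 before Mock, with its lowest level in C57BL/6 Mock, as for *Clec4e*. A small RMS difference is easier to reach between genes of narrow spread, such as *Ly96*, *Ly86* and *Pglyrp1*. The Pearson correlation over the 6 columns was 0.75 for *Ly96* with *Ly86*, 0.97 for *Pglyrp1* with *Ube2n* and 0.98 for *Clec4e* with *Il1a*. All genes of a column share its reference Ct and its RNA, so likeness over 6 columns describes these columns only.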

How the data were processed

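Spleen RNA pooled from 3 mice per sample was read by quantitative PCR on an RT² Profiler plate, per the labels. The values used were deposited as delta-Ct, a log2 quantity counted in cycles, with a table per strain. The authors subtracted the average Ct of the 3 reference genes from that of each gene, per the file headers. Blank wells and those later than 35 cycles had been entered as 35, per the series' design text, and the wild-type values summarise 2 experiments. The authors also deposited each gene's fold difference (the ratio R848/Mock), which was compared with 2 to the power of the delta-Ct difference and deviated by at most 0.0266 on the log2 scale for folds of 0.1 or more. Table names gave the strain, and column names the treatment. All 6 delta-Ct columns were used, and another 6 columns of per-sample values were not. A column's cap was its highest delta-Ct where at least 3 genes shared it. In C57BL/6 R848 no cap could be recognised. Where the lower side alone was capped, the fold is given as a bound ("at least"), valid for a late well but not for a blank one, and other differences with a side at the cap are called open. A wild-type mean may hold 1 capped experiment, which cannot be recognised. Depth has no equivalent here, and the precision of a reading is unknown.

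With 1 value per group no test was run. Other scalings used a single reference gene (each of the 3), the 5 housekeeping genes together, or the median pathway gene set to 0 (centring). Further alternatives were thresholds of 1.5-fold and 3-fold, leaving out capped genes or the first 4 wells, and the TLR7-/- Mock column as control. Leaving out *Cd14* was added after seeing the data. The members, lists, motifs and alternatives were chosen with earlier results of these data known. Named were the 5 members, *Tlr4*, *Cebpb*, the genes of wells A01 to A03, list genes at 2-fold or more, and for each member never at the cap the 3 genes with the smallest RMS difference. Other list genes, *Tlr7*, and *Cd80* and *Cd86* in the next wells were named after their values were seen. Promoter windows came from a RefSeq table of build GRCm38.p6 and were searched on both strands for general forms of 4 motifs. Python 3.11.15, numpy 2.4.6, pandas 2.3.3 and matplotlib 3.10.9 were used.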

Additional observations from a re-analysis of the deposited data

Results flagged for a closer look

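Several responses to R848 ran in opposite directions in different strains, with 1 pair of pooled samples per deficient strain, and none of these differences was tested. *Cd14* was higher with R848 in TLR7-/- spleens (at least 9.37) and lower in IFNAR-/- spleens (at most -6.80), a gap of at least 16.17 log2 units where the capped readings were late ones, and the IFNAR-/- value lay at most at -7.93 relative to the 1.13 of C57BL/6 spleens. The *Cd14* well, A04, is among the irregular ones. *Ly96* and *Ly86* were higher in IFNAR-/- spleens (0.90 and 0.60) and lower in C57BL/6 spleens (-0.12 and -0.47). The gaps were 1.02 and 1.07, beside a gap of 0.77 for the median gene of the plate. Their signs depended on the scaling. After centring both were lower in IFNAR-/- spleens too (-0.35 and -0.65), and with *Hsp90ab1* alone both were higher in C57BL/6 spleens too (0.40 and 0.05). *Pglyrp1* was lower in TLR7-/- spleens (-0.13) and higher in IFNAR-/- spleens (1.30) and C57BL/6 spleens (0.53). The gaps were -1.43 and -0.66, beside -1.33 and -0.41 for the median gene. Its TLR7-/- value was 0.0 with *Hsp90ab1* alone as reference.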

How the results depend on the processing

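No paired analysis was possible because the deposited wild-type columns are means of both experiments and carry no experiment number. For the same reason neither experiment could be left out. The median log2 difference of the 5 genes in C57BL/6 spleens, 0.53, was 0.25 with *Hprt1* alone, 1.05 with *Hsp90ab1* alone, 0.30 with *Gapdh* alone, 0.03 with 5 housekeeping genes, 0.13 after centring, 0.08 with the TLR7-/- Mock column as control and 0.21 without *Cd14*. In IFNAR-/- spleens, 0.90 became 0.50, 1.30, 0.28 and -0.35 with *Hprt1*, *Hsp90ab1*, 5 housekeeping genes and centring, 0.37 with the TLR7-/- Mock column and 1.10 without *Cd14*. In TLR7-/- spleens, -0.03 became -0.20, 0.10 and -0.14 with *Hprt1*, *Hsp90ab1* and 5 housekeeping genes. The median gap of the IFNAR-/- response from that of C57BL/6, 1.02, was 1.25 with *Gapdh*, 0.90 with *Hprt1*, *Hsp90ab1* or 5 housekeeping genes and 0.18 after centring. That of the TLR7-/- response, 0.09, was 0.35 with *Gapdh*, 0.20 with *Hprt1*, -0.30 with *Hsp90ab1*, 0.48 with 5 housekeeping genes and 0.43 after centring. The 2 members at least 2-fold higher in C57BL/6 spleens became 0 at 3-fold or with 5 housekeeping genes, and 3 with *Hsp90ab1* alone. They became 1 with *Hprt1* or *Gapdh* alone, after centring or without the first 4 wells. The 2 in IFNAR-/- spleens became 4 at 1.5-fold or with *Hsp90ab1* alone, and 1 at 3-fold, with *Hprt1* alone, with 5 housekeeping genes or after centring. *Cd14*, the 1 member higher in TLR7-/- and the 1 lower in IFNAR-/- spleens, leaves 0 in both without capped genes or the first 4 wells. *Clec4e* in C57BL/6 spleens turned to -2.47 with the TLR7-/- Mock column, a swap that mixes strain with treatment, and the cause was not tested.

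Over the whole plate, higher genes in C57BL/6 numbered 21 at 3-fold, 22 with 5 housekeeping genes and 23 after centring, in place of 32. Lower genes there numbered 2 at 3-fold, 17 with 5 housekeeping genes and 15 after centring, in place of 11. In IFNAR-/- spleens 45 higher genes became 36 with 5 housekeeping genes and 23 after centring. The 2 lower genes there became 5 at 1.5-fold or with 5 housekeeping genes and 8 after centring. They became 1 at 3-fold, without capped genes or without the first 4 wells. In TLR7-/- spleens 4 higher genes became 10 at 1.5-fold and 1 at 3-fold, and 3 lower genes became 6 at 1.5-fold and 1 at 3-fold or without the first 4 wells.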
